A study of Mus musculus with 9 samples.

Results

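Inhibitors of cyclin-dependent kinases (CDKs), the tumour suppressors p53 and Rb, and the p53 ligase Mdm2 were followed in mouse embryonic fibroblasts (MEFs) sorted by their MYC level. The 9 genes, Cdkn1a, Cdkn1b, Cdkn1c, Cdkn2a, Cdkn2b, Cdkn2c, Trp53, Mdm2 and Rb1, were picked by name from the 19769 genes of the RNA-seq table. The cells were primary MEFs from Myc-Egfp+/+ mice, in which MYC is made as a fusion with green fluorescent protein (GFP). All cells, low-MYC and high-MYC alike, had been kept for 6 h in 20 µM MG-132, which blocks the proteasome, and were then sorted into low-MYC and high-MYC populations by GFP, seeded overnight and lysed. ERCC transcripts, synthetic RNAs of known amount, were added in proportion to cell count, and polyadenylated RNA was sequenced with a strand-specific kit. Each population gave 2 libraries that were technical replicates, so the p-values below compare these libraries and not independent sorts or embryos. The series also holds a list of FUBP1 binding regions and a table of accessible chromatin reads (TACh-seq, made with a nuclease). The TACh-seq samples were WT MEFs and KOKD MEFs, which lack Fubp1 and had Fubp2 knocked down. No column of the table says from which of them its reads come. Its label names WT, but the descriptions of all TACh-seq samples point to it.

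CDK inhibitors hold the cell cycle in check. The Cip/Kip proteins, p21 from Cdkn1a, p27 from Cdkn1b and p57 from Cdkn1c, bind cyclin-CDK complexes, whereas the INK4 proteins, p16 and its relatives from Cdkn2a, Cdkn2b and Cdkn2c, bind Cdk4 and Cdk6 and keep them from D-type cyclins. Cdk4, Cdk6 and Cdk2 phosphorylate Rb, which in its unphosphorylated form restrains E2F transcription factors. Cdkn2a also encodes Arf in another reading frame, which inhibits Mdm2, and Mdm2 marks p53 for degradation while its own gene and Cdkn1a are p53 targets. MYC is known to act on several of these genes, and the proteasome that MG-132 blocks degrades p53, p21 and p27 proteins, which were not measured in these libraries.

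Upstream sequences are shown for the genes on which the comparison turns: Cdkn1a, the most abundant inhibitor, Mdm2, the other p53 target among the 9, and the neighbouring Cdkn2a and Cdkn2b. They come from RefSeq on GRCm38.p6, run 5′ to 3′ up to the transcription start, and were ended before any exon of the gene in the GENCODE M21 annotation. The 250 bases upstream of each RefSeq start were searched on both strands for 6 motifs: the E-box CACGTG, the CCAAT box CCAAT, the GC box GGGCGG, the TATA box TATAAA, the E2F site as TTTGGCGC or TTTCCCGC, and the p53 half-site. Matches are in capitals. In RefSeq, Cdkn1a has an upstream and a downstream start, and Cdkn2a has an upstream start for Arf and a downstream start for Ink4a.
Cdkn1a, upstream start (chr17:29090729-29090975, plus strand): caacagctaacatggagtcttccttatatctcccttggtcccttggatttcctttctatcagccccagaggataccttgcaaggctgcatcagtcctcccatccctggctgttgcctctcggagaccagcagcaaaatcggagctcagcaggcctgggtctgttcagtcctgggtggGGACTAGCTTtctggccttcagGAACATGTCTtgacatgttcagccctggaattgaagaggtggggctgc
Cdkn1a, downstream start (chr17:29093519-29093768, plus strand): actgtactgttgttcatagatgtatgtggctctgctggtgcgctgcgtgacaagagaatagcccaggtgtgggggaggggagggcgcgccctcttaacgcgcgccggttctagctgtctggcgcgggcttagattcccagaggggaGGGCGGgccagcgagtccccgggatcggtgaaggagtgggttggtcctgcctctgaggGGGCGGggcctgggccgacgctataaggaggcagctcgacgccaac
Cdkn2a, Arf start (chr4:89294654-89294869, minus strand): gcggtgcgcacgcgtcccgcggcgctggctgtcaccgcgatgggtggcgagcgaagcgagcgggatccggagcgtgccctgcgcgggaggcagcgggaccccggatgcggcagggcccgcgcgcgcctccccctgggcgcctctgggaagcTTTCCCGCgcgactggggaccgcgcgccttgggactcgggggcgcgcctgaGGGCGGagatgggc
Cdkn2a, Ink4a start (chr4:89282193-89282442, minus strand): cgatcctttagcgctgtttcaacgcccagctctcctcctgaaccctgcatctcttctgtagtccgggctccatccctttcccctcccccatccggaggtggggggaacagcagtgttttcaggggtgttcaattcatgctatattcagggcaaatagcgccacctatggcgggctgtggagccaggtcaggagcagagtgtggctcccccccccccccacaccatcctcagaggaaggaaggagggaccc
Cdkn2b (chr4:89311040-89311282, minus strand): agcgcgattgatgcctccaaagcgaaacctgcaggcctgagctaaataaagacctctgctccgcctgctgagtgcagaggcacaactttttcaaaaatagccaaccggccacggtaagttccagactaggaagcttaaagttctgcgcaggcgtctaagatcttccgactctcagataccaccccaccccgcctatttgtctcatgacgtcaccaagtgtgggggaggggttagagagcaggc
Mdm2 (chr10:117710759-117711008, minus strand): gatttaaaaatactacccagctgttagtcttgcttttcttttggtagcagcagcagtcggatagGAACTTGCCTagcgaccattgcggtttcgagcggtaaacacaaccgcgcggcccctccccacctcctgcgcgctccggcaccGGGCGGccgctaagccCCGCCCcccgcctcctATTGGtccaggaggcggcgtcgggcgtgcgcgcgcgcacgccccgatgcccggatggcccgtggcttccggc

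The upstream Cdkn1a run held 2 p53 half-sites and no other motif, and the downstream run held 2 GC boxes. The stretch before the downstream Cdkn1a start lies in an exon of AC167363.2 on the opposite strand. The Mdm2 run held 1 p53 half-site, 2 GC boxes and 1 CCAAT box. The E2F match stood before Arf, beside 2 GC boxes of which 1 is within the printed run, and neither the Ink4a nor the Cdkn2b stretch matched any of the 6 motifs. Among all 32851 RefSeq promoters of this length, 7.13% held a p53 half-site, 1.3% the E2F site, 32.7% a GC box, 33.8% a CCAAT box, 12.4% a TATA box and 6.02% an E-box. No E-box was found in the 10 windows of the 7 genes with an entry. A match is a run of letters and does not show that a factor binds there.

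The depth of the libraries was not given by the table, which holds FPK (fragments per kilobase of transcript) divided by the ERCC score of each library. Values on this spike-in scale are relative to the cell counts by which ERCC was added, and the accuracy of those counts was not tested. The values summed to between 46320.6 and 109089.6 per library, with a ratio of 2.24 between the mean totals of high-MYC and low-MYC cells. Values were therefore also expressed as a share of each library's total, in ppm, where a change common to all genes disappears. In limma on log2(normalized FPK + 0.1), 97.1% of the 11870 genes tested were higher in high-MYC cells and 0.0253% lower at an adjusted p under 0.01. The median log2 fold change of all genes was 1.03. On log2(share + 1), 1.78% were higher and 0.531% lower, and the median was 0.0094. Myc mRNA itself had a log2 fold change of 1.04 ± 0.04 (SE, limma adjusted p = 1.04e-05) on the spike-in scale and of -0.11 ± 0.04 (adjusted p = 0.154) on the share scale. In these bulk samples fewer cells of a type cannot be told apart from less RNA per cell.

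All 9 genes passed the filter of a mean of at least 0.1 normalized FPK, and all 9 rose on the spike-in scale, with both high-MYC libraries above both low-MYC libraries for each. All 9 passed at an adjusted p under 0.01 (limma), as did 97.1% of all genes tested in that direction. The rise is thus what nearly every gene did. Separation of the groups on this scale was not counted over all genes. Median log2 fold change was 1.12 over the 9 genes against 1.03 over all genes. The pseudocount lowers the fitted value for genes of low level. With a pseudocount of 1, where the median of all genes was 0.527, the log2 fold change on this scale was 0.298 for Cdkn2a, 0.172 for Rb1, 0.521 for Cdkn1c and 0.807 for Cdkn2c, and with 0.01 it was 1.58, 1.14, 1.26 and 1.35. On the share scale 1 of the 9 rose, Cdkn2b, and 0 fell, beside the backgrounds of 1.78% and 0.531%. At an unadjusted p under 0.05 there were 4 of the 9 genes and 3746 of all 11870. The shares of 5 genes were higher in both high-MYC libraries than in either low-MYC library (33.9% of all genes), those of 2 genes were lower (28.4% of all genes), and Cdkn1b and Trp53 overlapped between the groups.

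**Figure D1:**
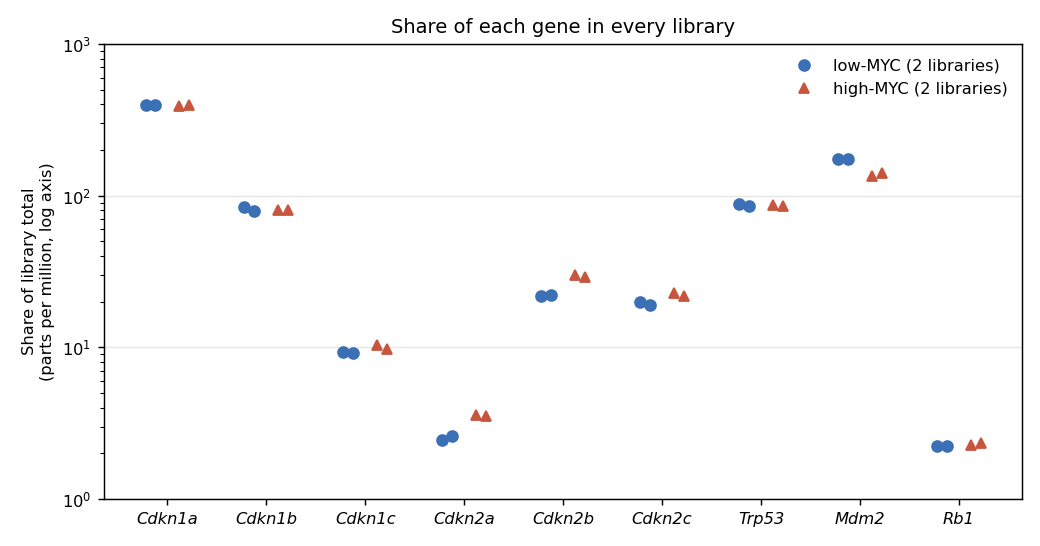
Share of the library total of each of the 9 genes, in ppm on a log axis. Circles are the 2 low-MYC libraries and triangles the 2 high-MYC libraries. Cdkn1a lies near 397 ppm in low-MYC cells, more than any other gene shown, and Rb1 near 2.25 ppm, whereas the symbols separate most for Mdm2, Cdkn2a and Cdkn2b.

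Among the Cip/Kip genes, Cdkn1a (chr17:29090976-29100727, plus strand) was by far the most abundant. Normalized FPK of Cdkn1a was 18.4 and 19.2 in the low-MYC libraries and 40.3 and 43.0 in the high-MYC libraries, and the means differed by a ratio of 2.22. Its log2 fold change was 1.14 ± 0.05 (SE, limma adjusted p = 1.17e-05). As a share of the total, Cdkn1a made up 397.0 and 397.2 ppm in low-MYC cells and 391.9 and 394.6 ppm in high-MYC cells. The high-MYC shares lay just below the low-MYC ones, and the log2 difference of -0.01 ± 0.03 did not pass the test (adjusted p = 0.750). By level, Cdkn1a ranked 325 in low-MYC replicate 1 and 323 in high-MYC replicate 2. Cdkn1a provided 74.37% and 75.09% of the FPK of the 6 inhibitors in low-MYC cells and 72.8% and 73.2% in high-MYC cells.

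Cdkn1b (chr6:134920401-134925513, plus strand), the gene of p27, had 3.88 and 3.80 normalized FPK in low-MYC cells and 8.22 and 8.76 in high-MYC cells, a log2 fold change of 1.12 ± 0.05 (SE, limma adjusted p = 1.10e-05). Its shares were 83.7 and 78.7 ppm against 79.9 and 80.3 ppm. The groups overlapped, and the log2 difference in share was -0.02 ± 0.04 (adjusted p = 0.781). Cdkn1c (chr7:143458339-143461050, minus strand), the imprinted gene of p57, was lower than either, at 0.428 and 0.444 normalized FPK in low-MYC cells and 1.07 and 1.05 in high-MYC cells. The log2 fold change on the spike-in scale was 1.12 ± 0.05 (adjusted p = 1.12e-05). Its shares of 9.25 and 9.20 ppm compared with 10.4 and 9.67 ppm in high-MYC cells. Both high-MYC shares were above both low-MYC shares, but the log2 difference of 0.11 ± 0.04 did not pass (adjusted p = 0.192). Cdkn1c overlaps the antisense gene Gm44732, and Cdkn1a overlaps AC167363.2 on the other strand. The 3 Cip/Kip genes together held 490.0 and 485.2 ppm of the low-MYC libraries and 482.2 and 484.5 ppm of the high-MYC libraries.

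The shares of Cdkn2a, Cdkn2b and Cdkn2c, 3 of the INK4 genes, summed to 43.9 and 43.87 ppm in low-MYC cells and to 56.2 and 54.5 ppm in high-MYC cells. Cdkn2b (chr4:89306299-89311039, minus strand), which encodes p15, was the member that rose on both scales. Normalized FPK of Cdkn2b was 1.00 and 1.07 in low-MYC cells and 3.06 and 3.19 in high-MYC cells, so that the ratio of means was 3.01. On the spike-in scale the log2 fold change of Cdkn2b was 1.504 ± 0.05 (SE, limma adjusted p = 1.04e-05). Its shares were 21.7 and 22.2 ppm in the low-MYC libraries and 29.8 and 29.2 ppm in the high-MYC libraries. The groups were well apart, and the log2 difference in share was 0.41 ± 0.03 (adjusted p = 0.00844), larger than in 95.8% of the genes tested. Estimated from the spacing of low values, the library with the fewest reads of Cdkn2b held 319, for which counting error alone is 5.6%. The call on the share scale was lost when any 1 of the 4 libraries was left out, without a filter on low values, without the limma trend, and when libraries were scaled to a common median (adjusted p = 0.0109). Over all 16 alternatives the log2 difference of Cdkn2b stayed between 0.31 and 0.43 and its adjusted p between 0.00165 and 0.0702.

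Cdkn2a (chr4:89274471-89294653, minus strand) lies next to Cdkn2b and gives both p16 and Arf, which the gene-level values do not separate. It had 0.113 and 0.125 normalized FPK in low-MYC cells and 0.368 and 0.384 in high-MYC cells. Its ratio of means, 3.16, was the largest of the 9 genes. With the pseudocount its log2 fold change was 1.12 ± 0.06 (SE, limma adjusted p = 1.63e-05). Shares of Cdkn2a were 2.45 and 2.59 ppm against 3.58 and 3.52 ppm. These were also apart, with a log2 difference of 0.37 ± 0.04, but it did not pass the threshold (adjusted p = 0.0193). With a pseudocount of 10 ppm, above the level of the gene, this difference was 0.114, and with 0.1 ppm it was 0.48. Reads behind this gene were few, since the value of 1 read estimated from the low values of the table puts at least 22 reads in the library with the fewest, for which counting error alone is 21.3%.

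Cdkn2c (chr4:109660876-109667189, minus strand), the gene of p18, had 0.916 and 0.922 normalized FPK in low-MYC cells and 2.35 and 2.37 in high-MYC cells, a log2 fold change of 1.27 ± 0.04 (SE, limma adjusted p = 1.04e-05). Its shares of 19.8 and 19.1 ppm compared with 22.8 and 21.7 ppm. The groups did not overlap, and the log2 difference in share of 0.19 ± 0.04 did not pass (adjusted p = 0.0620). These 6 inhibitors together took 533.9 and 529.0 ppm of the low-MYC libraries and 538.3 and 539.0 ppm of the high-MYC libraries. Within the FPK of these 6 inhibitors, which leaves out the INK4 gene Cdkn2d, Cdkn2b made up 4.06% and 4.19% in low-MYC cells and 5.53% and 5.42% in high-MYC cells.

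Trp53 (chr11:69580359-69591873, plus strand), which encodes p53, had 4.07 and 4.10 normalized FPK in low-MYC cells and 8.94 and 9.35 in high-MYC cells. Its log2 fold change of 1.14 ± 0.04 on the spike-in scale (SE, limma adjusted p = 1.04e-05) was higher than that of 74.1% of the genes tested. The shares of 87.9 and 85.0 ppm in low-MYC cells and 86.9 and 85.7 ppm in high-MYC cells overlapped, with a log2 difference of -0.0022 ± 0.03 (adjusted p = 0.971). Mdm2 (chr10:117688875-117710758, minus strand) had 8.14 and 8.40 normalized FPK in low-MYC cells and 13.9 and 15.4 in high-MYC cells. Its ratio of means, 1.77, was the smallest of the 9 genes. On the spike-in scale Mdm2 rose, with a log2 fold change of 0.82 ± 0.06 (adjusted p = 4.67e-05). As a share of the total it stood at 175.7 and 173.9 ppm in low-MYC cells and at 135.3 and 141.1 ppm in high-MYC cells. Both high-MYC shares were below both low-MYC shares, and the log2 difference was -0.34 ± 0.03, but its adjusted p of 0.0135 missed the threshold. Only 2.38% of the genes tested had a lower value. Among genes with a mean of at least 1 normalized FPK, where fewer genes were tested, the same difference passed (adjusted p = 0.00296), and over its 16 alternatives the adjusted p ran from 0.00296 to 0.0778.

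Rb1 (chr14:73183673-73325822, minus strand) was the least abundant of the 9 genes, at 0.103 and 0.109 normalized FPK in low-MYC cells and 0.235 and 0.256 in high-MYC cells. The ratio of means was 2.32, and the fitted log2 fold change was 0.75 ± 0.06 (SE, limma adjusted p = 7.41e-05), which the pseudocount lowers because the values are of its own size. Shares of Rb1 were 2.22 and 2.25 ppm against 2.28 and 2.35 ppm. The high-MYC shares were the higher ones, but the log2 difference of 0.04 ± 0.04 did not pass (adjusted p = 0.615). In the annotation Rb1 spans, in whole or in part, Gm17233 and Mir687 on its own strand and Rcbtb2 and Lpar6 on the opposite strand. Reads of Rb1 may be split with those of Gm17233 and Mir687. For Rcbtb2 and Lpar6 this depends on whether the assignment used the strand, which is not stated. In both groups the order of shares ran from Cdkn1a through Mdm2, Trp53, Cdkn1b, Cdkn2b, Cdkn2c, Cdkn1c and Cdkn2a to Rb1. The gap between Cdkn2a and Rb1 in low-MYC cells was within the counting error of Cdkn2a.

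**Figure D2:**
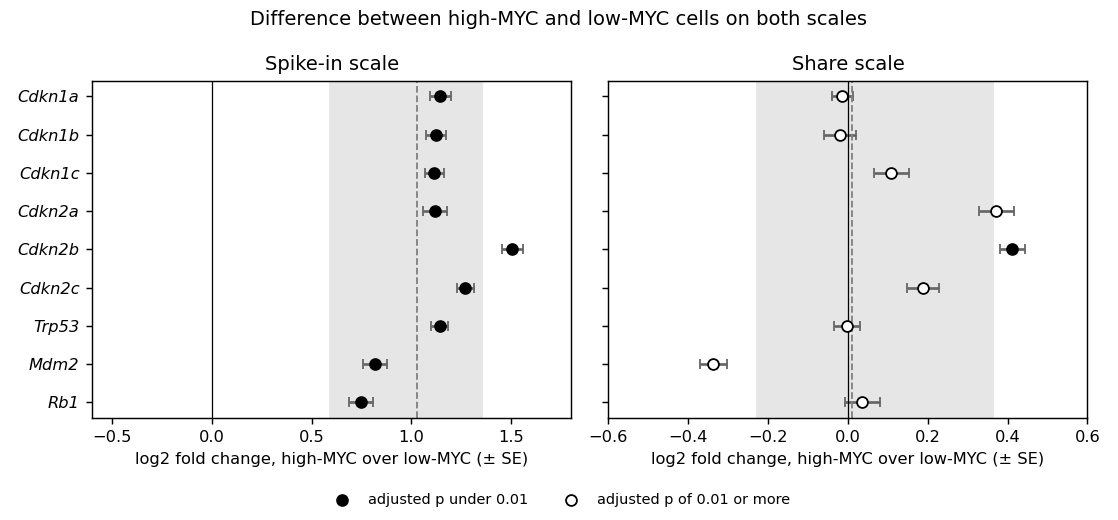
Log2 fold change of high-MYC over low-MYC cells for each of the 9 genes (points, with bars for the SE from limma), on the spike-in scale at left and the share scale at right. The grey band runs from the 5th to the 95th percentile of all 11870 genes tested and the dashed line is their median. Filled points have an adjusted p under 0.01, which holds for 9 genes at left and for Cdkn2b at right.

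Genes with the share profile most like that of Cdkn1a, Trp53 and Rb1 across the 4 libraries were looked up among genes of comparable level. For Cdkn1a they were Cd63, Psmd2 and Msn out of 403 genes, for Trp53 they were Khsrp, Rnf10 and Wbp11 out of 1709, and for Rb1 they were Zfp973, Bcorl1 and Rnf219 out of 3342. Distances between the centred log2 profiles were small, 0.013 for Cd63, 0.006 for Khsrp and 0.00768 for Zfp973. The likeness rests on 4 libraries and is a description. Khsrp encodes FUBP2, one of the MYC regulators of the study, at 96.9 and 93.8 ppm in low-MYC cells and 95.5 and 94.7 ppm in high-MYC cells.

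The genes around the 9 in the pathway were counted on the same fits. Of 99 tested genes in 8 lists, all 99 were higher on the spike-in scale, where 97.1% of all genes were. On the share scale 1 of the 99 rose and 1 fell, against 1.78% and 0.531% of all genes. The gene that rose was Ccnd1, which encodes cyclin D1, the partner of Cdk4 and Cdk6. Ccnd1 stood at 421.8 and 427.1 ppm in low-MYC cells and at 564.7 and 559.0 ppm in high-MYC cells, with a log2 difference of 0.40 ± 0.03 (SE, limma adjusted p = 0.00652). The gene that fell was Gadd45a, a p53 target that slows the cycle after DNA damage. Gadd45a stood at 38.1 and 38.4 ppm in low-MYC cells and at 27.10 and 27.07 ppm in high-MYC cells, with a log2 difference of -0.48 ± 0.03 (adjusted p = 0.00491). The groups overlapped for neither gene. Both calls were lost when any 1 of the 4 libraries was left out.

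Among the 8 kinases and cyclins that the inhibitors bind, the shares of all 8 had positive log2 differences, beside 53% of all genes tested, with a median of 0.17 and 1 call. Cyclin E1, from Ccne1, stood at 0.32 ± 0.04 (SE, limma adjusted p = 0.0202), while Cdk6 at 0.017 and Cdk2 at 0.047 had the lowest values of the list. The inhibitors outside the 9 genes were Cdkn2d, the gene of p19 of the INK4 family, at 40.7 and 37.8 ppm in low-MYC cells and 43.3 and 41.8 ppm in high-MYC cells with a log2 difference in share of 0.11, and Cdkn3, a phosphatase acting on CDKs, with 0.30 (adjusted p = 0.0189). Neither passed. In the list for the turnover of CDK inhibitors, the ubiquitin ligases and their partners, 0 of 9 genes passed and the median was 0.057. Dtl, which directs a ligase to p21 and other proteins on replicating DNA, was highest at 0.25, followed by Cks1b at 0.12, and Cul4b and Cul1 were lowest at 0.0077 and -0.017.

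For p53, 0 of the 16 regulators tested passed on the share scale, with a median log2 difference of 0.017. The range ran from Rpl5 at -0.14 and Ppm1d at -0.12 to Chek2 at 0.091 and Chek1 at 0.14. Trp63 and Trp73 were below the filter. Of the 20 p53 targets tested, 0 rose and 1 fell, against 1.78% and 0.531% of all genes. Positive values were held by 5 of the 20, beside 53% of all genes tested. The median was -0.054, beside 0.0094 over all genes. Fas, the death receptor gene, had 1.65 and 1.57 ppm against 2.92 and 2.78 ppm, a log2 difference of 0.56 (limma adjusted p = 0.0103) that just missed the threshold. Perp stood at 0.35 (adjusted p = 0.0328) and Plk3 at -0.39 (adjusted p = 0.0166). The targets lay on both sides of 0, more of them below it, with Cdkn1a between them at -0.01 and Mdm2 at -0.34. Sesn1 was below the filter.

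Downstream of Rb, 0 of 17 genes of the pocket protein, E2F and DREAM list passed, with a median of 0.039, from Lin37 at -0.044 and E2f3 at -0.043 to Rbl1 at 0.18 and Tfdp1 at 0.20. E2f2 and Lin52 were below the filter. The 14 E2F target genes all had positive log2 differences in share, as had 53% of all genes tested, with a median of 0.18 against 0.0094 over all genes, and 0 of the 14 passed. Rrm2, which makes deoxyribonucleotides, was highest at 0.32 (limma adjusted p = 0.0146), followed by Tk1 at 0.30 (adjusted p = 0.0610), while Mcm7 stood at 0.12. Among 13 tested regulators of the Cdkn2a locus, mostly Polycomb proteins, 0 passed and the median was -0.031. Tbx2, a repressor of the locus, stood at -0.27 (adjusted p = 0.0488) and Kdm6b, which removes the Polycomb mark, at -0.25 (adjusted p = 0.0359), with Twist1 at 0.078 and Ring1 at 0.087 at the other end.

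**Figure D3:**
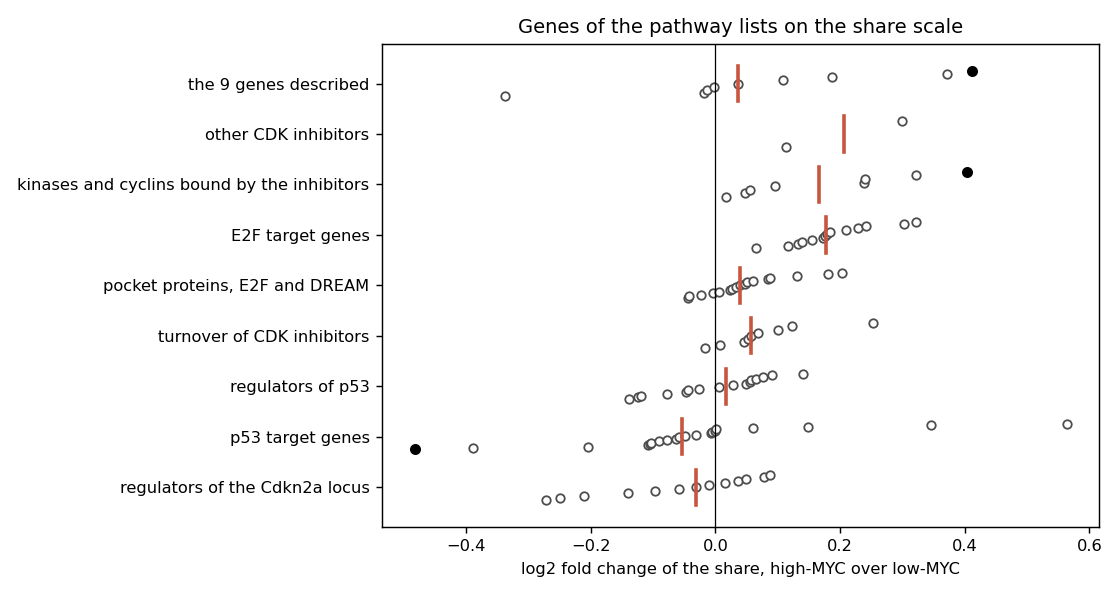
Log2 difference in share between high-MYC and low-MYC cells for every tested gene of each list, 1 point per gene, with a vertical bar at the list's median. Filled points have a limma adjusted p under 0.01 and are Cdkn2b, Ccnd1 and Gadd45a. All points of the E2F target list lie to the right of 0.

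Macrophage transcripts moved with the sort. The 20 macrophage markers summed to 14.1 and 18.7 ppm in the low-MYC libraries and to 285.5 and 282.3 ppm in the high-MYC libraries, with Adgre1, C1qa, Spi1 and Tyrobp at 0 in low-MYC replicate 1 and none at 0 elsewhere. All 13 tested markers rose in share, against 1.78% of all genes, with Lyz2 at 6.10 and Cd53 at 1.04 on the log2 scale. Apart from Cd68, however, the tested markers reached the filter only through the high-MYC libraries. That count was therefore largely fixed in advance, and no conclusion is drawn from it. Adgre1, Ctss, Ptprc, Itgam, Fcgr1, Spi1 and Mrc1 were below the filter. The 12 fibroblast markers were present in every library and summed to between 7060 and 7853 ppm. Of the 11 tested, 3 rose in share, against 1.78% of all genes, Lum (1.37) and Dcn (0.93) most. Thy1 at 0.031 and Vim at -0.038 were lowest, and neither passed. Whether RNA of other cells contributed to the share of Cdkn2b was not tested.

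Chromatin around the gene starts was described from the TACh-seq table, in which each read has a position and a mapping score but no library. WT and KOKD cells are therefore not compared here. The 4881417 reads lie in limited regions, and 51.8% of the 21938 protein-coding genes have 0 reads within 1 kb of their start. Among the 10227 protein-coding genes tested in the RNA-seq data, 15.2% have 0 and the median is 140 reads. Of the 9 genes, 8 had reads at their start, and 6 lay above that median. Mdm2 had 227 reads, more than 77.7% of the expressed genes. The order depended on the window, since within 500 bp Mdm2 had 146 reads, Cdkn1b 170 and Cdkn2b 184, and within 2000 bp Mdm2 had 254, Cdkn2c 263 and Trp53 415. Cdkn1b and Cdkn2b had 205 reads each, Trp53 190 and Cdkn2c 166. At Cdkn2a 154 reads surrounded the Arf start and 100 the Ink4a start, so both starts of the gene lay in regions with reads. At Cdkn1a 94 reads surrounded the upstream start that follows the p53 half-sites shown above, and 149 the downstream start with the GC boxes. A further annotated start of Cdkn1a (chr17:29097900) had 39 reads. Rb1 had 74 reads.

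Cdkn1c had 0 reads within 1 kb, with the nearest read 87065 bp away. Its RNA was detected in all 4 RNA-seq libraries, which came from the sorted MEFs and not from the TACh-seq samples. Because the reads lie in limited regions only, 0 reads do not show that the start was closed. Reads of Cdkn2b peaked in the 200 bp before the start, with 65 reads, and fell off on both sides. Those of Mdm2 peaked in the 200 bp after the start, with 55 reads. At Trp53 the fullest 200 bp within 3 kb lay between 1200 and 1000 bp upstream, with 98 reads, and not at the start itself. The promoter of Trp53 lies beside that of Wrap53, which starts on the opposite strand at -104 bp, outside the 200 bp with 98 reads. None of the 9 genes is on chromosome 15, where all 166 FUBP1 binding regions in the deposited list lie, so they could not be compared with that list.

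**Figure D4:**
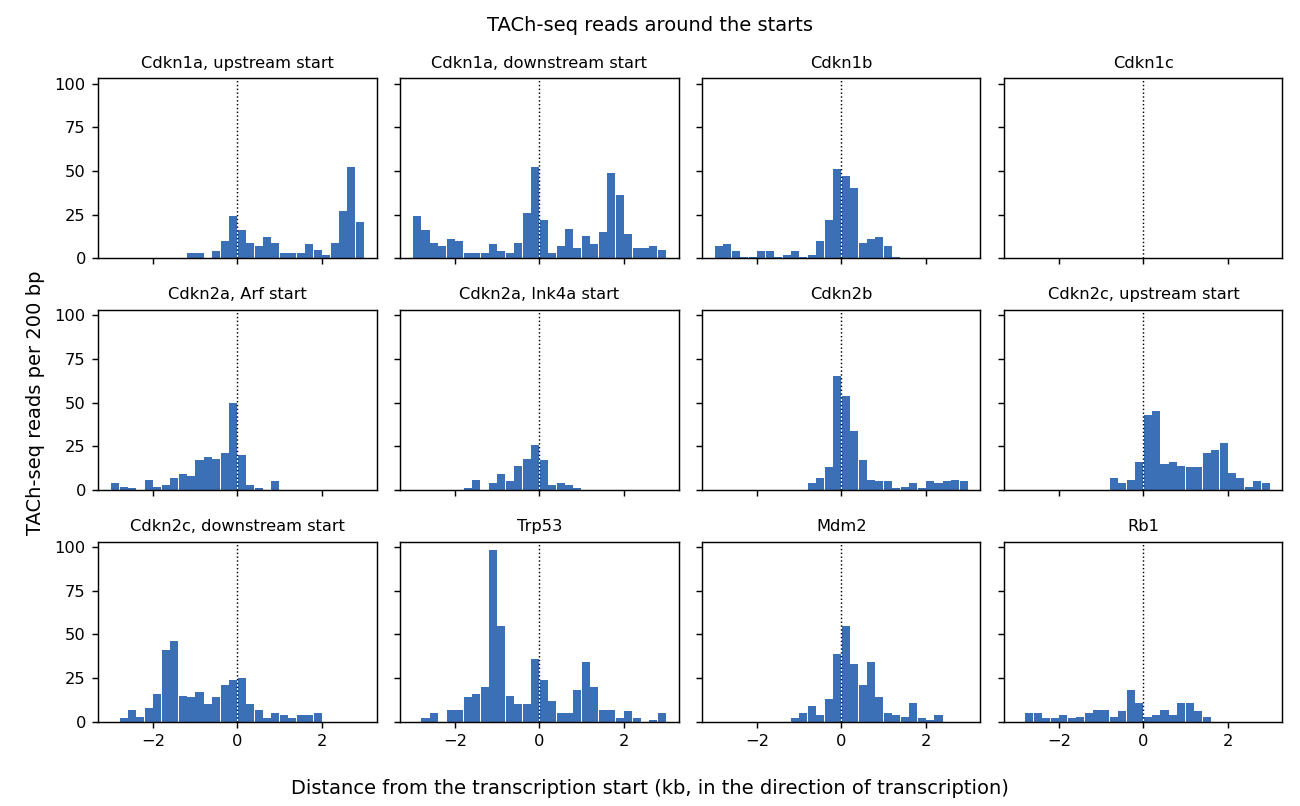
TACh-seq reads per 200 bp around 12 transcription starts of the 9 genes, against distance from the start in kb in the direction of transcription (dotted line at 0). The further Cdkn1a start at chr17:29097900 is not shown. The same vertical axis is used throughout. Reads gather at the starts of Cdkn1b, Cdkn2a, Cdkn2b and Mdm2, the highest bar, 98 reads, lies upstream of Trp53, and the panel of Cdkn1c is empty.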

How the data were processed

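RNA-seq values came from 2 low-MYC and 2 high-MYC libraries of MEFs, grouped by the sample labels. Reads were quality-trimmed by the authors, aligned with TopHat to mouse transcripts of mm10, assigned by Partek's E/M algorithm, and divided by the transcript's length and by the library's ERCC score. The deposited values are a signal per cell as far as ERCC was added in proportion to cell count, and reads shared by overlapping genes are split by that algorithm. Versions of these tools are not given in the sources used here. For TACh-seq the authors aligned reads with Bowtie2, and the deposited score is the mapping score of each read, from 11 to 42, with no column naming a library.

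From these values log2(normalized FPK + 0.1) and log2(share in ppm + 1) were compared with limma 3.58.1 (eBayes with trend, R 4.3.3) over the 11870 of 19769 genes with a mean of at least 0.1, with Benjamini-Hochberg adjustment over all of them and a threshold of 0.01. The table holds no read counts, so depth was estimated only, from the spacing of low values. On a transcript of 1 kb, 1 read was worth 0.004378, 0.004378, 0.009822 and 0.0111 normalized FPK in low-MYC replicates 1 and 2 and high-MYC replicates 1 and 2. Of the values used, 42.0% to 45.4% lay within 0.1 of a whole number of reads, too few to recover counts. Estimated reads of a gene use its shortest coding transcript and cover counting error only. TACh-seq reads were counted by midpoint within 1000 bp of GENCODE M21 gene starts. The procedure was tested on simulated data. Genes named are the 9, the 2 highest and 2 lowest of each list by share, Myc, and the 3 nearest profiles of Cdkn1a, Trp53 and Rb1; 1 list gene is not reported here. The 9 genes and the lists were chosen with earlier results of these data known. Other steps used Python 3.11.15, pandas 2.3.3, numpy 2.4.6 and matplotlib 3.10.9. Alternatives covered the pseudocount, the filter, the trend, the threshold, the scaling, the total (the total without macrophage markers was chosen after seeing the data), each library and, for TACh-seq, the window, the mapping score, duplicates and the starts used.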

Additional observations from a re-analysis of the deposited data

How the results depend on the processing

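The 9 genes called on the spike-in scale numbered 9 in all alternatives but the minimum mean of 1 (6, of 6 tested), the added fold change of at least 2 (7), and scaling to a common median (0), which removes the shift shared by all genes and turned the log2 fold changes of Cdkn1a (-0.0293), Cdkn1b (-0.0340), Trp53 (-0.0171) and Mdm2 (-0.351). On the share scale, where 1 was called, 0 were called with no filter, no limma trend, a fold change of at least 2 or median scaling, 2 with a minimum mean of 1 and 3 at an adjusted p under 0.05. Leaving out each library gave 0 to 0 calls among the 9 genes and 0 to 0 among the list genes, and the calls over all genes then ranged from 0 to 56 higher and 0 to 5 lower. With a library left out, the share difference ran from -0.0627 to 0.0245 for Cdkn1b and from -0.0264 to 0.0221 for Trp53: without low-MYC replicate 1 both turned positive, as did Trp53 without high-MYC replicate 2 (0.00798). Of the list genes, 2 in the comparison as reported, 0 were called with no filter or a fold change of at least 2, 6 with a minimum mean of 1, 17 at an adjusted p under 0.05, and 4 with a total that left out mitochondrial genes or the 100 highest genes. Over all genes the counts on the share scale were 72 and 8 with no filter, 275 and 123 with a minimum mean of 1, 195 and 41 without the trend, 922 and 462 at an adjusted p under 0.05, 79 and 7 at a fold change of at least 2, 273 and 94 without mitochondrial genes, and 263 and 97 without the 100 highest genes. Apart from thresholds and filters, which change what is tested, the cause was not tested. The sum of 1315 TACh-seq reads at the 9 starts ran from 927 (500 bp) to 1795 (2000 bp) over its 5 alternatives.

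With the replicate number as a block, 0 of the 9 genes and 0 of the list genes were called on the share scale (Cdkn2b adjusted p = 0.0231, limma), as were 0 of all genes, and all 9 on the spike-in scale. The numbers are shared by the groups, but nothing pairs the libraries: deviations of same-numbered libraries from their group means correlated at 0.081 on the spike-in scale and 0.0707 on the share scale, over 2 pairs.

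Depth limits Cdkn2a and Rb1 most, with at least 22 and 107 estimated reads per library, and 2 technical replicates per group leave the spread between sorts unknown.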
